A study of Homo sapiens with 8 samples.

Results

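The 10 genes described here encode the secreted ligands of the transforming growth factor beta (TGF-beta) pathway (TGFB1, TGFB2 and TGFB3), the receptors that bind them (TGFBR1, TGFBR2 and TGFBR3) and the latent TGF-beta binding proteins of the extracellular matrix (LTBP1, LTBP2, LTBP3 and LTBP4). They were picked by name, and each of the 10 was found among the 16796 genes in the count files. RNA was sequenced from LX-2, an immortalised human hepatic stellate cell line with features of activated, myofibroblastic cells, grown in medium with 5% fetal bovine serum. Control cells received the solvent DMSO and treated cells received OSMI-1, an inhibitor of the O-GlcNAc transferase OGT, at 50 µM (OGTi), both for 24 h, with 4 biological replicates in each group. No TGF-beta was listed among the additions in either group, all cells came from a single line, and the inhibitor was used at a single dose and time, so the values describe this line under these conditions. OGT places single O-GlcNAc sugars on nuclear and cytoplasmic proteins, and the comparison asked how transcript levels differed when it was inhibited.

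TGF-beta is the best known fibrogenic cytokine of the liver. Each ligand is made as a precursor that is cut by furin-like proteases but stays wrapped in its own propeptide, the latency associated peptide. Inside the cell this small latent complex is usually joined by a disulfide bond to an LTBP, which carries it to fibrillin and fibronectin fibres, where it waits until integrins or proteases release it. The free ligand binds TGFBR2, which recruits and phosphorylates TGFBR1, and TGFBR1 phosphorylates SMAD2 and SMAD3. TGFBR3, also called betaglycan, is a co-receptor that presents ligand, TGFB2 above all, because TGFB2 binds TGFBR2 poorly on its own.

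The ligands with high transcript levels in LX-2 cells, TGFB1 and TGFB2, parted under OGTi, and the 250 bases before their annotated starts are printed to show what sequence precedes each of them. Both stretches are written 5′ to 3′ on the strand of the gene, from the RefSeq promoter table on GRCh38.p14, with matches to the searched words in capitals. TGFB1 lies on the minus strand of chromosome 19 (41301587 to 41353922) and its stretch spans chr19:41353923-41354172. TGFB2 lies on the plus strand of chromosome 1 (218345336 to 218444619) and its stretch spans chr1:218345086-218345335.
TGFB1: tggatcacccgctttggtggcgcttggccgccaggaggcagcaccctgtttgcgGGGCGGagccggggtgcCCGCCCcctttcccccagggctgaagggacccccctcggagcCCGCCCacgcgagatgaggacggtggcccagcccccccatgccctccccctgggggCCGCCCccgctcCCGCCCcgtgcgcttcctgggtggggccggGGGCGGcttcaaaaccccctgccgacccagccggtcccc
TGFB2: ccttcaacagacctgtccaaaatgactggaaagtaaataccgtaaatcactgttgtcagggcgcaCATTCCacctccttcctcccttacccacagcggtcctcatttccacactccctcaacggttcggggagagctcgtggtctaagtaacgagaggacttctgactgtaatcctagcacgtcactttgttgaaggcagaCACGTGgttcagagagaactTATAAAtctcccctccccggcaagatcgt

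In the TGFB1 stretch the capitals mark 6 matches to the GC box word GGGCGG, read on either strand, and G and C make up 76.8% of its bases. In the TGFB2 stretch, with 50.4% G and C, they mark the TEAD word GGAATG, read as CATTCC on the printed strand and beginning 185 bases before the start, the E-box word CACGTG beginning 49 bases before it, and the TATA box word TATAAA beginning 29 bases before it. The matches in these stretches did not overlap one another. Over all 35116 promoters of the table, the same window held the GC box word in 42.6%, the TEAD word in 11.9%, the TATA box word in 10.7% and the E-box word in 6.34%. All 10 genes matched the table, with 23 annotated starts between them. The TEAD word was found at a start of TGFB2, TGFBR1 and LTBP4, the E-box and TATA box words at starts of TGFB2 and TGFB3, and the GC box word at starts of 7 genes, namely TGFB1, TGFBR1, TGFBR2, TGFBR3, LTBP2, LTBP3 and LTBP4. In TGFB3 the E-box and TATA box words lay before different starts, whereas in TGFB2 both lay before the same start. Some genes have several starts, and the shares over all promoters are per start. Counted per start, the TEAD word was held by 3 of the 23, the GC box word by 12, and the E-box and TATA box words by 2 each. The cAMP response element word TGACGTCA, held by 1.65% of promoters, was found only at a start of LTBP1, and the AP-1 word TGANTCA, held by 6.57%, at none of the 23 starts. These are matches of letters and not measured binding sites.

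The 8 libraries held 24166756 to 28201215 counts each. Of 12 stellate cell and myofibroblast markers, 8 reached 10 counts in a library, whereas DES, DCN, LRAT and HAND2 did not, and the summed level of the list was 6714 to 7688 CPM (counts scaled to a common library total) in control and 5233 to 6097 CPM in OGTi. Hepatocyte markers summed to 1.70 to 3.84 CPM in control and 7.17 to 11.6 CPM in OGTi, with APOA1 at 1 count or less. That sum came from CYP2E1, with 24 to 282 raw counts per library, and SERPINA1, with 17 to 81. The listed ALB, TTR and HNF4A were absent from the count files. Endothelial markers summed to 1.88 to 3.44 and 0.679 to 1.34 CPM, and cholangiocyte markers, mostly SOX9, to 25.8 to 41.8 and 37.8 to 50.8 CPM. Macrophage and leukocyte markers summed to 92.1 to 147 CPM in control and 216 to 369 CPM in OGTi, nearly all of it CD68, a lysosomal glycoprotein, while the leukocyte antigen PTPRC had at most 10 counts in any library. Whether these shifts bear on the genes below was not tested.

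Of the 10 genes, 4 were lower in OGTi, 0 were higher and 6 did not pass the test. The fallers were the ligand TGFB2 and the latency proteins LTBP2, LTBP3 and LTBP4, which makes 1 of 3 ligands, 0 of 3 receptors and 3 of 4 latency proteins. A gene was called when its adjusted p in the paired DESeq2 comparison over all genes was 0.05 or lower. By that rule 46.6% of the 14028 genes tested were called, 24.0% as lower and 22.7% as higher, so a call in this experiment was common and the number of calls among the 10 is near the background. The median log2 fold change was -0.23 over the 10 genes and 0.00 over all genes tested. Libraries of the 2 groups did not overlap in normalized counts (counts divided by a size factor for library depth) for 4 of the 10 genes, the same that were called, against 40.0% of all genes tested.

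**Figure D1:**
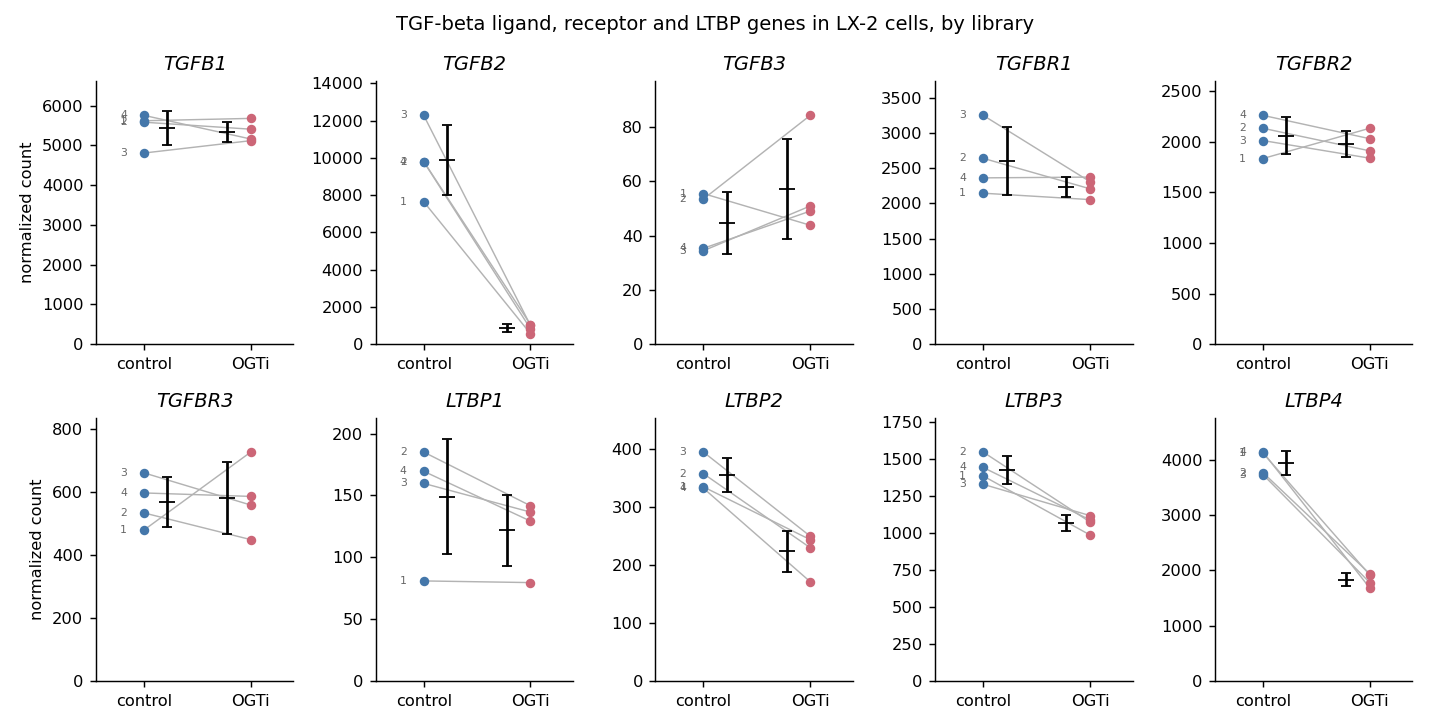
Normalized count (vertical axis, from 0) of each of the 10 genes in the 4 control and 4 OGTi libraries. Points are libraries, grey lines join replicates of the same number, and black bars give the mean ± SD. TGFB2 fell from a mean of 9884 to 863, LTBP4 from 3937 to 1827, LTBP3 from 1428 to 1068 and LTBP2 from 355 to 224, each without overlap, and the other genes overlap between the groups.

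TGFB2 had the largest fold change of the 10 genes. Its normalized counts in control replicates 1 to 4 were 7648, 9806, 12284 and 9798, and those in the OGTi replicates were 564, 1056, 1007 and 826. The lowest control library thus stood far above the highest OGTi library, and replicate 1 was the lowest of its group in both. The level fell by 3.54 ± 0.09 (SE) on the log2 scale, or 11.6-fold, with a 95% interval of -3.71 to -3.36. The Wald statistic of DESeq2 was -39.6 and the adjusted p was too small to be stored as anything but 0. Within pairs of the same replicate number the log2 ratio lay between -3.76 and -3.21, lower in 4 of 4. Among the 14028 genes tested, 33 had a log2 fold change at least as low, TGFB2 included. As the RNA came from bulk cultures, less TGFB2 RNA in every cell and fewer cells expressing TGFB2 cannot be told apart.

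TGFB1, the ligand usually named first in liver fibrosis, was not called. Its 4 control libraries had 5621, 5585, 4809 and 5757 normalized counts and its 4 OGTi libraries 5681, 5409, 5120 and 5162. The groups overlapped fully, with 2 pairs lower and 2 higher. The log2 fold change was -0.02 ± 0.07, with a 95% interval of -0.16 to 0.11 and a DESeq2 adjusted p of 0.811. Its estimate changed sign without replicate 4 (0.019).

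TGFB3 transcripts were scarce in LX-2 cells, with raw counts of 30 to 84 per library. Its normalized counts were 55.5, 53.5, 34.5 and 35.4 in control and 43.9, 84.4, 51.0 and 49.1 in OGTi. OGTi replicate 2 was the highest library and the groups overlapped. The log2 fold change of 0.34 ± 0.33 was not called (DESeq2 adjusted p of 0.430), and its 95% interval ran from -0.32 to 0.99.

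Because read counts grow with transcript length, levels of different genes were compared as normalized count per kilobase (kb) of the longest coding transcript. On that scale TGFB1 and TGFB2 had like levels in control, 1958 ± 154 and 1684 ± 323 per kb (SD, n = 4), with overlapping ranges. In OGTi they stood at 1922 ± 93.0 and 147 ± 37.9 per kb. The ratio of TGFB2 to TGFB1 was 0.645 to 1.21 in control libraries and 0.0470 to 0.0931 in OGTi libraries. TGFB2 therefore made up 39.0% to 54.6% of ligand transcripts in control and 4.46% to 8.46% in OGTi, while TGFB3 stayed at or below 1.14% in both groups. The absolute share rests on the length chosen: the mean share of TGFB2 in control was 45.8%, but 29.2% with the median coding transcript length and 63.9% with no length correction, and the corresponding OGTi means were 7.07%, 3.56% and 13.8%. Summed over the 3 ligands, the level went from 3655 ± 217 to 2086 ± 76.0 per kb, so that OGTi libraries held 57.1% of the control mean. This fraction also rests on the length chosen, being 72.1% with the median coding transcript length and 40.7% with no length correction. All 4 pairs were lower in this sum under each of these lengths.

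**Figure D2:**
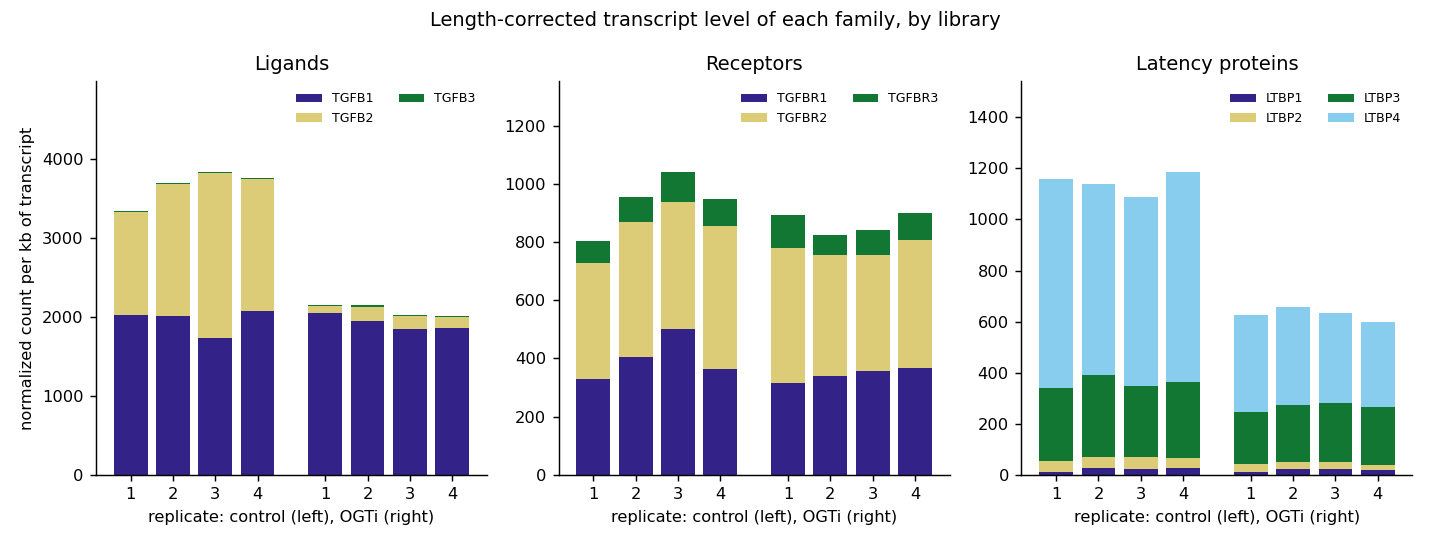
Stacked bars give the normalized count per kb of the longest coding transcript (vertical axis, from 0) for the 3 ligands, 3 receptors and 4 latency proteins in each library, with control replicates 1 to 4 on the left and OGTi replicates 1 to 4 on the right of each panel. The TGFB2 part of the ligand bars shrinks from a mean of 1684 to 147 and the LTBP4 part of the latency bars from 782 to 363, whereas the receptor bars overlap between groups (804 to 1042 in control and 826 to 899 in OGTi).

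None of the 3 receptors was called. TGFBR1, the type I receptor kinase that phosphorylates the SMADs, had normalized counts of 2145, 2641, 3251 and 2363 in control and 2054, 2208, 2309 and 2374 in OGTi. The control libraries spread widely, with replicate 3 highest, and the groups overlapped. Its log2 fold change of -0.20 ± 0.09 (95% interval -0.38 to -0.02) lay close to the threshold, with a DESeq2 adjusted p of 0.0605. It was called lower by the quasi-likelihood test of edgeR (-0.20, adjusted p of 0.0479), and by DESeq2 without replicate 1 (-0.25, adjusted p of 0.0430) or without replicate 4 (-0.27, adjusted p of 0.0414). The other 6 alternatives left it uncalled. Among them, the DESeq2 estimate was -0.11 without replicate 3 (adjusted p of 0.425) and -0.18 without replicate 2 (adjusted p of 0.227).

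TGFBR2, the type II receptor kinase that binds ligand first, had 1834, 2133, 2012 and 2261 normalized counts in control and 2134, 1910, 1838 and 2030 in OGTi. Ranges overlapped almost wholly, and the log2 fold change was -0.06 ± 0.09 (95% interval -0.23 to 0.12, DESeq2 adjusted p of 0.639). TGFBR3, the co-receptor that TGFB2 relies on, had 478, 533, 660 and 596 normalized counts in control and 726, 448, 558 and 585 in OGTi. Pair 1 rose by 0.60 on the log2 scale while the other 3 pairs were lower, and the overall log2 fold change was 0.02 ± 0.14 (95% interval -0.26 to 0.30, DESeq2 adjusted p of 0.925). Without replicate 1 the estimate turned to -0.17 (adjusted p of 0.343). Per kb, TGFBR2 and TGFBR1 had overlapping levels in control (447 ± 39.4 and 400 ± 73.8), and TGFBR3 was lower than both at 89.4 ± 12.4. The summed receptor level in OGTi was 92.3% of the control mean, with 3 of 4 pairs lower and overlapping ranges.

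Transcripts of 3 of the 4 latency proteins fell. LTBP4, an LTBP that binds mainly the TGFB1 complex and also takes part in elastic fibre assembly, had normalized counts of 4118, 3764, 3729 and 4135 in control and 1915, 1937, 1778 and 1680 in OGTi. The libraries within each group lay close together and the gap between groups exceeded either spread. LTBP4 fell by 1.11 ± 0.08 on the log2 scale, or 2.15-fold (95% interval -1.27 to -0.95, DESeq2 adjusted p of 3.89e-41), lower in 4 of 4 pairs. LTBP4 lies on chromosome 19 (40592883 to 40629818, plus strand), the chromosome that also holds TGFB1.

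LTBP3, which binds the small latent complexes of the 3 ligands and is needed for their secretion in several cell types, had 1387, 1549, 1331 and 1445 normalized counts in control and 988, 1076, 1119 and 1090 in OGTi. Every control library lay above every OGTi library. It fell by 0.42 ± 0.09 on the log2 scale, or 1.34-fold (95% interval -0.60 to -0.24, DESeq2 adjusted p of 2.02e-05), with 4 of 4 pairs lower. LTBP2, which unlike the other LTBPs does not bind latent TGF-beta and associates with fibrillin fibres, had 335, 358, 395 and 333 in control and 244, 230, 250 and 171 in OGTi. OGTi replicate 4 was the lowest library, and no OGTi library reached the control range. The level of LTBP2 fell by 0.68 ± 0.15 on the log2 scale, or 1.60-fold (95% interval -0.97 to -0.38, DESeq2 adjusted p of 3.68e-05), lower in 4 of 4 pairs.

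LTBP1, the first LTBP described and a carrier of the 3 ligands, was expressed at a low level. Its normalized counts were 80.9, 185, 160 and 170 in control and 79.5, 142, 137 and 129 in OGTi. Replicate 1 was low in both groups, and the groups overlapped. Although 4 of 4 pairs were lower, LTBP1 was not called (log2 fold change of -0.26 ± 0.20, 95% interval -0.66 to 0.13, DESeq2 adjusted p of 0.297).

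LTBP4 was the leading latency transcript per kb in both groups, at 782 ± 43.7 in control and 363 ± 24.0 in OGTi, followed by LTBP3 at 295 ± 19.3 and 221 ± 11.7. Its share of LTBP transcripts was 65.7% to 70.7% in control and 55.6% to 60.8% in OGTi, and that of LTBP3 was 24.8% to 28.1% and 32.6% to 37.6%. With the median coding transcript length the mean LTBP4 share was 92.1% and 87.9%, the median annotated coding transcript of LTBP4 being 0.755 kb long against 5.03 kb for the longest. The summed latency protein level fell in 4 of 4 pairs, from 1143 ± 41.4 to 629 ± 23.6 per kb, or 55.1% of the control mean. That fraction was 48.6% with the median length and 55.2% with no length correction. The ratio of the ligand carriers LTBP1, LTBP3 and LTBP4 to the ligands had no direction that held across lengths. It was 0.302 ± 0.0260 in control and 0.289 ± 0.00894 in OGTi with the longest transcripts, with overlapping ranges, but it went down from 0.906 to 0.608 with the median lengths and up from 0.362 to 0.482 with no length correction. These sums and ratios are descriptions and carry no test.

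**Figure D3:**
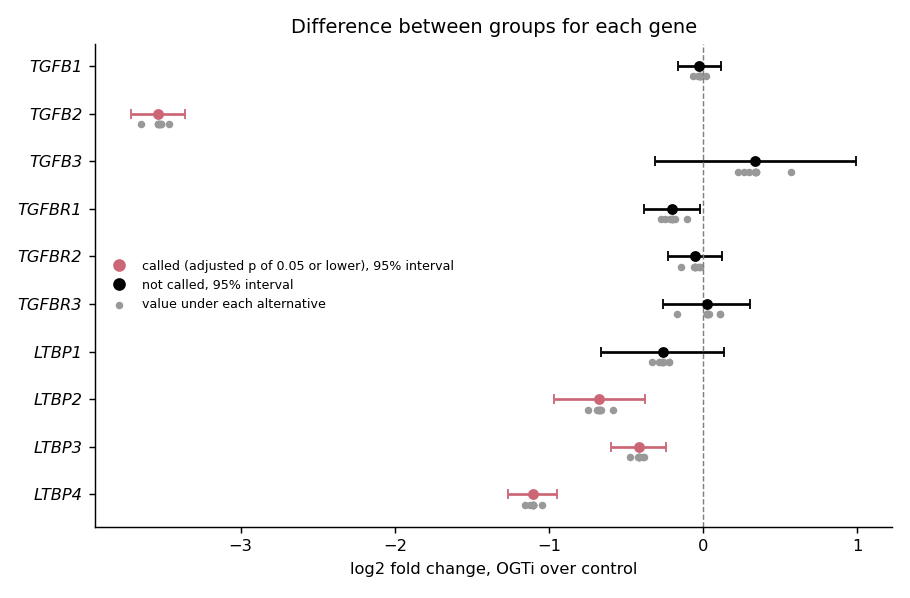
Log2 fold change of OGTi over control (horizontal axis) for each gene, with its 95% interval from DESeq2. Red marks the called genes, black the others, and small grey points the value under each of the 9 alternative fits. The intervals of TGFB2 (-3.71 to -3.36) and LTBP4 (-1.27 to -0.95) lie farthest from 0, and the grey points of TGFB1 and TGFBR3 fall on both sides of it.

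Ordered by level per kb in control, TGFB1 and TGFB2 led with overlapping ranges and were followed by LTBP4, then by TGFBR2 and TGFBR1, which overlapped, and by LTBP3, TGFBR3 and LTBP2, each apart from its neighbours. LTBP1 and TGFB3 came last, with overlapping ranges (LTBP1 from 12.4 per kb upward and TGFB3 up to 16.2 per kb). In OGTi, TGFB1 led by a wide margin, ahead of TGFBR2 at 430 ± 28.4, and TGFB2 had moved from rank 2 to rank 6. LTBP4 and TGFBR1 overlapped in OGTi (334 to 385 and 316 to 366 per kb), as did TGFB2 and TGFBR3 (96.1 to 180 and 70.7 to 114 per kb). LTBP2, LTBP1 and TGFB3 were at the bottom of the order and overlapped with one another. The top of the control order moved with the length chosen, since LTBP4 ranked 1, TGFB1 2 and TGFB2 3 with the median coding transcript length, and TGFB2 ranked 1 and TGFB1 2 with no length correction. TGFB1 at rank 1 and TGFB2 at rank 6 in OGTi held under the 3 lengths.

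The genes whose levels followed those of each ligand most closely were sought among 10926 genes whose normalized counts averaged 100 or more, by Pearson correlation of log2 levels over the 8 libraries. TGFB2 was followed most closely by CRY1 (r = 0.997), a repressor of the circadian clock, ZNF592 (r = 0.997), a zinc finger protein, and OXTR (r = 0.997), the oxytocin receptor. The libraries form 2 separate groups for TGFB2, so that 58 genes passed an r of 0.99 and the coefficient mostly expresses the difference between groups. For TGFB1, whose groups overlap, the closest were C15orf39 (r = 0.960), GYPC (r = 0.932) and C19orf44 (r = 0.923), and for TGFB3 they were BOD1 (r = 0.974), PPOX (r = 0.947) and HEXA (r = 0.940). The 8 libraries share the same normalization, and with so few points high coefficients arise easily among this many genes.

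The genes that act around the ligands and receptors were grouped into 5 lists from general knowledge of the pathway, with earlier results of these data known. In the list for release of the latent complex, 6 of 17 tested genes were lower, 4 were higher and 7 did not pass, with a median log2 fold change of -0.16, where over all genes tested 24.0% were lower, 22.7% were higher and the median was 0.00. ITGB6 and PCSK6 were listed but not tested. The largest statistics were those of PLAT, the tissue plasminogen activator, which rose from 1959 ± 306 to 4103 ± 1057 normalized counts (log2 fold change of 1.05 ± 0.10, DESeq2 adjusted p of 1.14e-23), IGF2R, the mannose 6-phosphate receptor that binds latent TGF-beta, which rose from 4592 ± 350 to 7309 ± 397 (0.67 ± 0.08, DESeq2 adjusted p of 1.76e-17), and PCSK5, a furin-like protease, which rose from 17.1 ± 5.86 to 82.2 ± 35.9 (2.25 ± 0.36, DESeq2 adjusted p of 5.67e-09). Among the 6 lower genes, named here after their values were seen, were the integrin subunits ITGB8 (-1.35 ± 0.22), ITGB3 (-0.63 ± 0.14) and ITGB1 (-0.22 ± 0.07), the activator THBS1 (-0.48 ± 0.09) and the precursor protease FURIN (-0.31 ± 0.07), with DESeq2 adjusted p values from 1.04e-08 to 0.00301. The integrin subunit ITGAV, which pairs with ITGB8, had a log2 fold change of -0.16 ± 0.14 and was not called.

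In the list for matrix storage and binding, 5 of 9 tested genes were lower, 0 were higher and 4 did not pass, with a median log2 fold change of -0.30, beside 46.6% of all genes called in either direction and 24.0% called lower. ELN, DCN and FMOD were too weakly expressed to be tested. FBN1, the fibrillin to which LTBPs attach, fell from 8799 ± 1040 to 5758 ± 361 normalized counts (-0.61 ± 0.07, DESeq2 adjusted p of 3.2e-15). FBLN2, a fibulin of elastic fibres, had a log2 fold change of -0.56 ± 0.12 (DESeq2 adjusted p of 7.54e-06), and FN1, the fibronectin that anchors latent complexes, one of -0.30 ± 0.08 (DESeq2 adjusted p of 0.000448), lower in 4 of 4 pairs although its groups overlapped. This count depended on the fit, as 3 genes of the list were called lower without the replicate block and also without replicate 4.

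In the list of co-receptors and receptor regulators, 6 of 16 tested genes were lower, 3 were higher and 7 did not pass, with a median of -0.11, beside 24.0% lower and 22.7% higher among all genes tested. LRG1 was not tested. DAB2, an endocytic adaptor that binds the receptors and SMADs, fell from 22247 ± 3741 to 10607 ± 1652 normalized counts (-1.07 ± 0.07, DESeq2 adjusted p of 1.06e-50). Higher were VASN, a membrane protein that traps TGF-beta (from 1728 ± 190 to 3438 ± 559, 0.98 ± 0.08, DESeq2 adjusted p of 6.52e-30), and NRP2, a neuropilin that can bind TGF-beta (from 341 ± 19.8 to 673 ± 95.2, 0.97 ± 0.13, DESeq2 adjusted p of 3.58e-13). The co-receptor ENG, or endoglin, named after its value was seen, was not called (-0.14 ± 0.08, DESeq2 adjusted p of 0.151).

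Among 7 SMAD transducers and regulators, 4 were lower, 1 was higher and 2 did not pass, with a median of -0.33, beside the 24.0% of all genes called lower and the 22.7% called higher. Both receptor-activated SMADs of the pathway fell, SMAD3 from 4634 ± 424 to 3133 ± 146 normalized counts (-0.56 ± 0.08, DESeq2 adjusted p of 8.6e-12) and SMAD2 from 1725 ± 115 to 1252 ± 37.6 (-0.46 ± 0.09, DESeq2 adjusted p of 1.23e-06). TGIF2, a repressor that binds SMADs, fell from 660 ± 28.7 to 366 ± 46.3 (-0.86 ± 0.13, DESeq2 adjusted p of 2.08e-10). The higher gene was SKI, another repressor of SMAD transcription (0.36 ± 0.07, DESeq2 adjusted p of 6.59e-06), and the shared partner SMAD4 was not called (-0.17 ± 0.09), these last genes being named after their values were seen.

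Of 21 tested genes known as transcriptional targets of TGF-beta, 11 were lower, 7 were higher and 3 did not pass, with a median of -0.29, set against 24.0% lower and 22.7% higher over all genes. NOX4 was not tested. The largest statistics were those of the collagen genes COL3A1, COL1A2 and COL1A1, with log2 fold changes of -2.50 ± 0.11, -1.39 ± 0.10 and -0.95 ± 0.07 (DESeq2 adjusted p of 3.36e-112, 2.77e-40 and 1.15e-36), genes that also stand in the stellate marker list above. Targets moved in both directions. Among genes named after their values were seen, the immediate feedback inhibitor SMAD7 had a log2 fold change of -0.64 ± 0.18 (DESeq2 adjusted p of 0.00102) and the co-repressor gene SKIL one of -0.54 ± 0.17 (DESeq2 adjusted p of 0.00358), whereas the transcription factor gene JUNB had one of 1.37 ± 0.12 (DESeq2 adjusted p of 4.04e-30) and the cell cycle inhibitor gene CDKN2B one of 0.54 ± 0.09 (DESeq2 adjusted p of 6.63e-08).

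**Figure D4:**
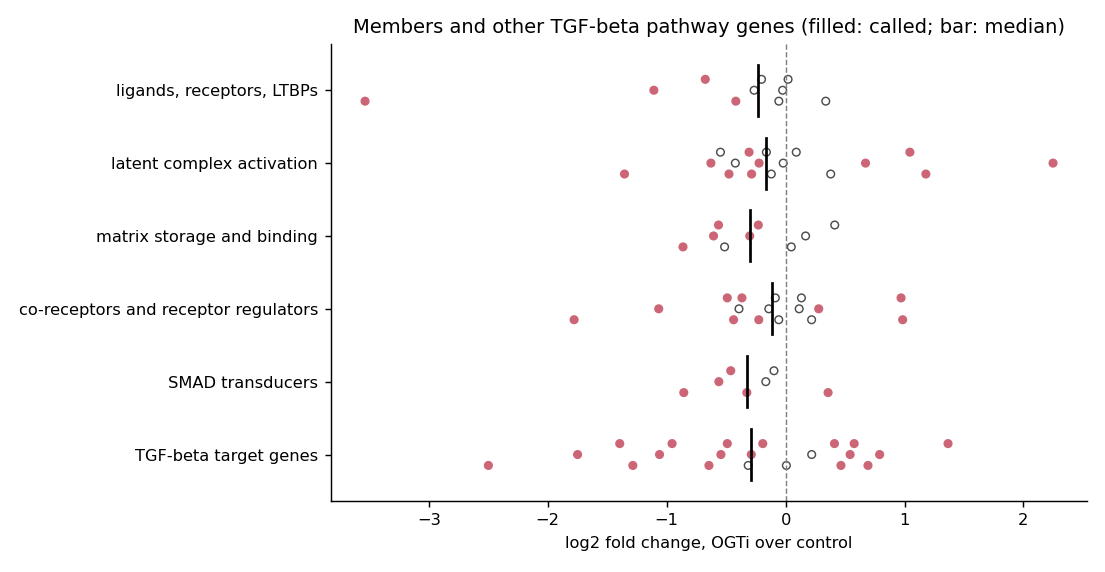
Log2 fold change of OGTi over control (horizontal axis) for the 10 ligand, receptor and LTBP genes and for the tested genes of the 5 pathway lists. Filled points are called genes, open points are not, vertical bars are list medians and vertical offsets within a list only separate points. Medians lie between -0.33 and -0.11, and genes called in both directions appear in every list except the matrix list and the 10 genes themselves, where all called genes are lower.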

How the data were processed

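Poly(A) RNA of 4 control and 4 OGTi cultures was sequenced as stranded, paired-end libraries. The authors aligned reads to hg38 with Bowtie2 2.3.5.1 and deposited expected counts, which are estimated counts per gene, from RSEM 1.3.1, 1 file per library. RSEM divides reads that match several genes. A deposited table of the authors' own fold changes and p-values was not used. Counts were rounded, genes under a total of 10 left out, and 14895 genes fitted in R 4.3.3 with the DESeq2 1.42.0 Wald test, with replicate number as a block as in the study's methods. Benjamini-Hochberg adjustment covered all 14028 genes kept by independent filtering, and genes at 0.05 or lower were called. Same-numbered libraries deviated together (Pearson r across 11702 genes of 0.379, 0.303, 0.138 and 0.269), and were treated as pairs. However, control replicate 3 was nearer to OGTi replicate 4 (0.272), and OGTi replicate 3 was nearer to control replicate 4 (0.2015). Positions and transcript lengths came from GENCODE release 44 on GRCh38. Alternatives were edgeR 4.0.16, no block, TMM factors, 2 other filters, each replicate left out and other lengths. Genes named were the 10, the 3 called genes with the largest statistic in each list, and the 3 genes most like each ligand. The 10 genes and the lists were chosen with earlier results of these data known. The fit was also run on simulated counts in which few genes changed and no replicate effect was set, unlike these data.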

Additional observations from a re-analysis of the deposited data

Results flagged for a closer look

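Among 40 groups of 4 libraries examined (the levels and the family shares of the 10 genes in each treatment), 2 had a library set apart from the other 3, and chance alone would give about 2. The share of LTBP1 among LTBP transcripts was 1.95% in OGTi replicate 1 and 3.30% to 3.32% in the other OGTi libraries. LTBP1 was also low in control replicate 1, where it had 80.9 normalized counts. The share of LTBP3 was 28.1% in control replicate 2 and 24.8% to 25.3% in the other control libraries.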

How the results depend on the processing

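Of 90 alternative fits of single genes (9 for each of the 10), 85 kept the direction and the call, 3 made TGFBR1 a call (given above), and 2 turned the sign of an uncalled estimate, TGFB1 without replicate 4 (0.019) and TGFBR3 without replicate 1 (-0.17), within ranges of -0.066 to 0.019 and -0.17 to 0.11 over the replicates left out. The calls of TGFB2, LTBP2, LTBP3 and LTBP4 held in all 9. The number of the 10 called was 4 or 5, and of all genes 5127 to 7074. Without the replicate block, 6307 genes and the same number of the 10, 4, were called, and called lower in the matrix list were 3 in place of 5, as also without replicate 4 (range 3 to 5 over the replicates left out). The mean TGFB2 share was 29.2% (median transcript length) or 63.9% (no length correction) in control and 3.56% or 13.8% in OGTi. The mean LTBP4 share with the median length was 92.1% in control and 87.9% in OGTi. For the family sums, lengths were varied after seeing the data, and the ratio of LTBP1, LTBP3 and LTBP4 to the ligands in OGTi, 95.7% of control, turned to 133% with no length correction. TGFB3 and LTBP1, with the fewest counts of the 10, had the widest intervals, and the part of depth in this was not tested.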
